A study of Homo sapiens with 15 samples.

Results

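The collagen genes were followed in the human synovial cell line MH7A under 5 culture conditions. A gene was a member when its symbol consisted of COL, a number, A and a number, as in COL1A1, in the annotation of the array. Of 18417 genes with a symbol of their own on the array, 43 met this rule, and 42 of them were among the 16872 genes bright enough to be tested. COL6A5, a chain of type VI collagen, stayed below the brightness filter on all 15 arrays. The members were split into 11 fibrillar collagens, 6 chains of the basement membrane collagen type IV and 26 other collagens, of which 25 were tested. Where a gene had several probe sets (transcript clusters), the brightest was used, which concerned COL11A2 with 3 clusters. A further cluster that carried COL1A2 beside the symbol of another gene was left out.

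MH7A is an established line of immortalised synovial cells, so all values describe 1 line in culture. The conditions, in the names used here, were IL-1β+GlcN+alloxan, IL-1β+GlcN, IL-1β+alloxan, IL-1β alone and resting cells. GlcN (glucosamine) was given at 5 mM from 2.5 h before the cytokine IL-1β, which was used at 15 pg/ml for 13 h. Alloxan was applied to inhibit OGT, the enzyme that attaches O-GlcNAc to proteins. Cells met it at 5 mM during the first 30 min and at 2 mM from then on, a schedule that the labels spell out for the cultures that also received GlcN. Each condition was measured on 1 array in each of 3 experiments, which gave 15 arrays of the Human Gene 1.0 ST type.

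Collagens are the main fibre proteins of connective tissue. The chains assemble as helical trimers in the endoplasmic reticulum, are secreted and trimmed, and are then crosslinked outside the cell. Fibrillar collagens (types I, II, III, V, XI, XXIV and XXVII) form the banded fibrils of tendon, skin, bone, cartilage and synovial stroma. Type IV chains build the sheet of basement membranes, and the remaining types attach to fibrils, make networks or anchoring and beaded filaments, or span the cell membrane. In the synovial lining, fibroblast-like cells make much of this matrix, and IL-1β is known as a regulator of matrix synthesis and breakdown in joint cells.

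The values were log2 signals, and their level differed by experiment. The 5 arrays of experiment 1 had medians of 6.18 to 6.21, those of experiment 2 had 7.14 to 7.19 and those of experiment 3 had 7.49 to 7.54, so values compare within an experiment. Conditions were therefore compared with limma within experiment number, with p-values adjusted over all 16872 genes and a threshold of 0.05. Without the experiment as a block, the standard error of a difference was 0.596 log2 units for every gene, against a median of 0.0647 with it, and 0 collagen genes passed in any comparison (limma, adjusted p = 1 for every collagen gene tested). Over all genes that fit called 0.0237% for GlcN, 0.00593% for GlcN with alloxan over IL-1β alone, 0.0296% for GlcN against alloxan and 0% in the other contrasts. With the block but only the arrays of the groups compared, 0 passed in each comparison except GlcN against alloxan, where 1 did. The calls given for the other comparisons thus rest on both the block and the spread shared by all 5 conditions. How many of all genes passed with only the groups compared was not counted. Whether the loss is particular to the collagen genes is therefore not known. The paper calls the 3 experiments separate, but nothing in the labels says whether they were cultures of different passages. The p-values of the blocked fit measure the spread of these arrays that is left once the level of each experiment is taken off. An array signal is relative to the other RNA of the culture, and fewer cells making a collagen cannot be told apart from less of its RNA per cell.

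As a check of the cell type, 6 of 12 fibroblast markers lay above the array median, among them VIM (mean percentile 98.8) and THY1 (80.5), while the lubricin gene PRG4 lay at the 14.5 percentile. Of 5 endothelial and 3 T cell markers 0 lay above it. Of 6 macrophage markers 1 did (CD68, 84.0), and of 6 chondrocyte markers 2. Of 4 epithelial markers 2 did, KRT18 (94.8) and KRT8 (84.1). The median percentile was 47.1 in the fibroblast list, 66.1 in the epithelial, 47.0 in the chondrocyte, 40.0 in the macrophage, 35.5 in the endothelial and 29.0 in the T cell list. The fibroblast list was thus not the brightest.

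Among the 42 collagen genes tested, 11 differed among the 5 conditions in limma's F test, which asks for any difference at all. The background was 25% of all genes tested, and the share of the collagen family lay close to it. The 11 comprised 6 of 11 fibrillar collagens (COL1A1, COL1A2, COL3A1, COL5A1, COL5A2 and COL11A1), 2 of 6 type IV chains (COL4A1 and COL4A2) and 3 of 25 others (COL7A1, COL8A1 and COL12A1). Adjusted p ran from 3.5e-05 for COL8A1 to 0.0047 for COL7A1 (limma F test). The nearest genes past the threshold were COL24A1 (adjusted p = 0.054, limma), COL6A1 (0.060) and COL10A1 (0.065).

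**Figure D1:**
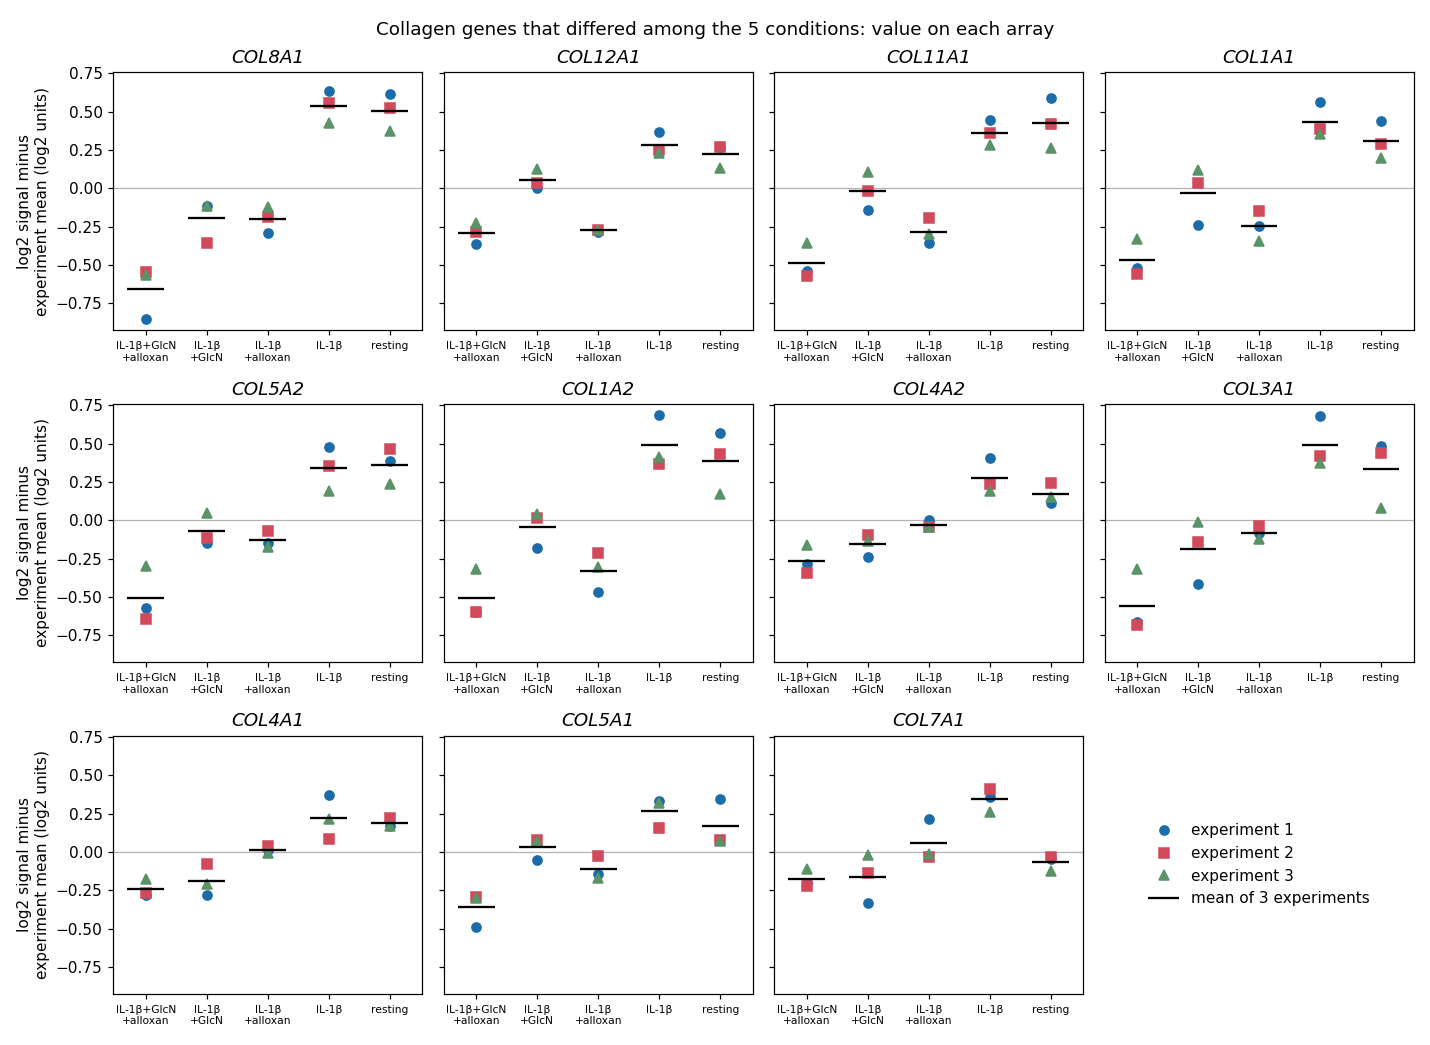
Log2 signal of the 11 collagen genes that differed among the conditions, on each of the 15 arrays, after the mean of its experiment was taken off (y axis, log2 units). Conditions run along the x axis, symbols mark the 3 experiments and bars their mean; in COL8A1 the IL-1β+GlcN+alloxan arrays are the lowest of every experiment and IL-1β alone and resting arrays the highest.

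Type I collagen, the main fibril protein of most connective tissues, is made of chains encoded by COL1A1 and COL1A2. In experiments 1, 2 and 3, COL1A1 had log2 signals of 9.56, 10.26 and 10.84 in IL-1β+GlcN+alloxan cells, 9.83, 10.85 and 11.29 in IL-1β+GlcN cells, 9.83, 10.67 and 10.82 in IL-1β+alloxan cells, 10.64, 11.20 and 11.53 in cells with IL-1β alone, and 10.51, 11.10 and 11.37 in resting cells. All 3 treated conditions were thus below IL-1β alone in every experiment. COL1A2 followed with 7.39, 8.26 and 8.99 in IL-1β+GlcN+alloxan cells, 7.81, 8.87 and 9.35 in IL-1β+GlcN cells, 7.52, 8.64 and 9.00 in IL-1β+alloxan cells, 8.67, 9.22 and 9.72 with IL-1β alone, and 8.56, 9.29 and 9.48 in resting cells. Once the mean of each experiment was taken off, the treated arrays of both chains did not overlap with the arrays of IL-1β alone, whereas IL-1β alone and resting arrays overlapped. Overlap was not counted over all genes, and it is read from the same arrays as the calls, so it adds no separate evidence.

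With GlcN, COL1A1 fell to 0.725-fold (log2 fold change -0.46 ± 0.30, SD of 3 experiments, adjusted p = 0.016, limma) and COL1A2 to 0.692-fold (-0.53 ± 0.29, adjusted p = 0.020). With alloxan, COL1A1 fell to 0.623-fold (-0.68 ± 0.14, adjusted p = 0.0019, limma) and COL1A2 to 0.568-fold (-0.82 ± 0.30, adjusted p = 0.0019). Both compounds together gave 0.534-fold for COL1A1 (-0.90 ± 0.20, adjusted p = 0.00017, limma) and 0.502-fold for COL1A2 (-0.99 ± 0.28, adjusted p = 0.00030). The type I chains therefore moved in one direction and to a similar size in each of these comparisons, with experiment 1 showing the biggest drop for GlcN in both (-0.81 for COL1A1 and -0.87 for COL1A2).

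COL3A1 encodes type III collagen, which forms fibrils together with type I in stretchable tissues. Its log2 signals in experiments 1, 2 and 3 were 7.03, 7.80 and 8.61 in IL-1β+GlcN+alloxan cells, 7.29, 8.34 and 8.92 in IL-1β+GlcN cells, 7.62, 8.44 and 8.81 in IL-1β+alloxan cells, 8.38, 8.90 and 9.31 with IL-1β alone, and 8.19, 8.92 and 9.01 in resting cells. The combined treatment was the lowest condition in each experiment. COL3A1 fell to 0.625-fold with GlcN (log2 fold change -0.68 ± 0.37, SD, n = 3, adjusted p = 0.010, limma), to 0.674-fold with alloxan (-0.57 ± 0.17, adjusted p = 0.023) and to 0.484-fold with both (-1.05 ± 0.33, adjusted p = 0.00045).

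Type V collagen, with chains from COL5A1 and COL5A2, starts fibrils and limits their width, and the type XI chain COL11A1, best known from cartilage, is its close relative. COL5A2 had 6.39, 7.12 and 8.07 in IL-1β+GlcN+alloxan cells, 6.82, 7.65 and 8.41 in IL-1β+GlcN cells, 6.82, 7.70 and 8.19 in IL-1β+alloxan cells, 7.44, 8.12 and 8.55 with IL-1β alone, and 7.35, 8.23 and 8.60 in resting cells. COL11A1 had 7.38, 8.34 and 8.69 in IL-1β+GlcN+alloxan cells, 7.78, 8.90 and 9.15 in IL-1β+GlcN cells, 7.56, 8.72 and 8.75 in IL-1β+alloxan cells, 8.37, 9.27 and 9.33 with IL-1β alone, and 8.51, 9.33 and 9.31 in resting cells. Within every experiment both genes were lowest with both compounds. COL5A1 had 6.85, 7.73 and 8.38 in IL-1β+GlcN+alloxan cells, 7.28, 8.10 and 8.76 in IL-1β+GlcN cells, 7.20, 7.99 and 8.51 in IL-1β+alloxan cells, 7.67, 8.18 and 9.00 with IL-1β alone, and 7.68, 8.10 and 8.76 in resting cells.

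The chains of type V and XI were not called alike. With GlcN, COL5A2 (log2 fold change -0.41 ± 0.25) and COL11A1 (-0.38 ± 0.21) passed (adjusted p = 0.025 and 0.024, limma, n = 3 experiments), while COL5A1 at -0.24 ± 0.16 did not (adjusted p = 0.12). With alloxan all 3 fell, COL11A1 by 0.65, COL5A2 by 0.47 and COL5A1 by 0.38 on the log2 scale (adjusted p = 0.0014, 0.013 and 0.016, limma). With both compounds the values were -0.85 for COL11A1, -0.84 for COL5A2 and -0.63 for COL5A1 (adjusted p = 0.00012, 0.00023 and 0.00055, limma). The partner chains of type V were not tested against each other.

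Of the other 5 fibrillar genes, COL24A1 fell with alloxan (log2 fold change -0.28 ± 0.16, SD, n = 3, adjusted p = 0.047, limma) but not in the other comparisons against IL-1β alone. Its log2 signals were 5.92, 6.74 and 6.86 in IL-1β+GlcN+alloxan cells, 5.92, 6.83 and 7.22 in IL-1β+GlcN cells, 5.56, 6.73 and 6.64 in IL-1β+alloxan cells, 5.92, 6.82 and 7.02 with IL-1β alone, and 5.96, 6.74 and 6.95 in resting cells. The drop was -0.36 in experiment 1 and -0.38 in experiment 3, against -0.09 in experiment 2. COL2A1, the cartilage collagen, COL5A3, COL11A2 and COL27A1 did not pass in any comparison.

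Basement membrane collagen in most tissues is built from the type IV chains α1 and α2, encoded by COL4A1 and COL4A2 on chromosome 13, which lie head to head and are read outward from a shared promoter. The windows from 250 bases before to 50 bases after each start in RefSeq (GRCh38.p14) are shown because both genes fell with GlcN and with the combined treatment. The COL4A1 window (minus strand) spans chr13:110307108-110307407 and the COL4A2 window (plus strand) spans chr13:110307034-110307333. The starts are 127 bases apart and the windows share 226 bases, each read on its own strand. Capitals mark the letters of GC boxes (GGGCGG) and CCAAT boxes (CCAAT), searched on both strands.
COL4A1: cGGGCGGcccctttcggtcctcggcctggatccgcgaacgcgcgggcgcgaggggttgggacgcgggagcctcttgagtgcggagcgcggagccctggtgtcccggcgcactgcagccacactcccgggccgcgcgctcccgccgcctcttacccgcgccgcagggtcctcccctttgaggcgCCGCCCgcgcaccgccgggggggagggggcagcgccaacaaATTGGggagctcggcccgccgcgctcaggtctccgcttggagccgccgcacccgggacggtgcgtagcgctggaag
COL4A2: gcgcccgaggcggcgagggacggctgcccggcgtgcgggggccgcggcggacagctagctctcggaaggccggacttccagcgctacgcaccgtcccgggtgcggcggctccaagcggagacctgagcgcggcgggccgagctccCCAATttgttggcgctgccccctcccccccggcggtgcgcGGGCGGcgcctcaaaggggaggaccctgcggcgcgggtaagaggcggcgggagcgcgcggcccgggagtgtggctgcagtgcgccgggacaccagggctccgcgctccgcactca

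The COL4A1 window held 2 GC boxes and 1 CCAAT box, and the COL4A2 window 1 of each. The CCAAT box and 1 GC box lie in the shared stretch and are seen in both windows, read on opposite strands. A TATA box (TATAAA) was found in neither. Over all 35116 windows of this length, 45.0% held a GC box, 34.6% a CCAAT box and 11.5% a TATA box. Windows were at hand for 31 of the 43 collagen genes (43 windows in all, since a gene may have several), and of those 24 held a GC box, 13 a CCAAT box and 7 a TATA box.

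On the arrays COL4A1 had log2 signals of 6.74, 7.56 and 8.33 in IL-1β+GlcN+alloxan cells, 6.74, 7.75 and 8.30 in IL-1β+GlcN cells, 7.03, 7.87 and 8.50 in IL-1β+alloxan cells, 7.39, 7.91 and 8.72 with IL-1β alone, and 7.19, 8.05 and 8.67 in resting cells. COL4A2 had 7.44, 8.34 and 9.08 in IL-1β+GlcN+alloxan cells, 7.49, 8.58 and 9.11 in IL-1β+GlcN cells, 7.73, 8.64 and 9.20 in IL-1β+alloxan cells, 8.13, 8.91 and 9.44 with IL-1β alone, and 7.84, 8.92 and 9.40 in resting cells. With or without alloxan, the arrays with GlcN lay below those without GlcN in each experiment.

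GlcN lowered COL4A1 to 0.751-fold (log2 fold change -0.41 ± 0.25, SD, n = 3, adjusted p = 0.0041, limma) and COL4A2 to 0.740-fold (-0.43 ± 0.18, adjusted p = 0.0022). Alloxan lowered COL4A2 to 0.809-fold (-0.31 ± 0.09, adjusted p = 0.014, limma), while COL4A1 at -0.21 ± 0.16 did not pass (adjusted p = 0.089). Both compounds gave 0.725-fold for COL4A1 (-0.46 ± 0.16, adjusted p = 0.0012, limma) and 0.687-fold for COL4A2 (-0.54 ± 0.17, adjusted p = 0.00030). Of the remaining type IV chains, which are found in kidney, lung and other specialised basement membranes, COL4A5 fell with both compounds only (-0.26 ± 0.13, adjusted p = 0.040, limma). COL4A3, COL4A4 and COL4A6 passed in no comparison.

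COL8A1, a short chain of network-forming type VIII collagen known from vessel walls and the cornea, had the largest drop of all members with GlcN and with both compounds. Its log2 signals were 5.87, 6.85 and 7.45 in IL-1β+GlcN+alloxan cells, 6.60, 7.04 and 7.90 in IL-1β+GlcN cells, 6.43, 7.21 and 7.90 in IL-1β+alloxan cells, 7.35, 7.95 and 8.44 with IL-1β alone, and 7.33, 7.92 and 8.39 in resting cells. GlcN lowered it to 0.601-fold (log2 fold change -0.73 ± 0.19, SD, n = 3, adjusted p = 0.0010, limma), alloxan to 0.600-fold (-0.74 ± 0.19, adjusted p = 0.0011) and both to 0.437-fold (-1.19 ± 0.26, adjusted p = 2.1e-05). It was also the only member that passed when GlcN was compared in the presence of alloxan (-0.46 ± 0.10, adjusted p = 0.036, limma). The background of that comparison was 3.53% of all genes, with 1.67% lower and 1.86% higher. COL8A1 lost this call without any 1 of the 3 experiments, without any 1 array of IL-1β+GlcN+alloxan or IL-1β+alloxan cells, and without the IL-1β or the resting array of experiment 2, with values from -0.52 to -0.33. COL8A2, the other type VIII chain, passed in no comparison.

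COL12A1 encodes type XII collagen, which attaches to the surface of type I fibrils. The gene had 11.13, 11.89 and 12.35 in IL-1β+GlcN+alloxan cells, 11.49, 12.21 and 12.71 in IL-1β+GlcN cells, 11.21, 11.90 and 12.31 in IL-1β+alloxan cells, 11.86, 12.42 and 12.81 with IL-1β alone, and 11.76, 12.44 and 12.72 in resting cells. Both alloxan conditions were thus nearly level in each experiment and below GlcN. Its log2 fold change was -0.23 ± 0.13 with GlcN (SD, n = 3, adjusted p = 0.025, limma), -0.56 ± 0.08 with alloxan (adjusted p = 0.00017) and -0.57 ± 0.14 with both (adjusted p = 6.4e-05).

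COL7A1 encodes type VII collagen, the anchoring fibril that ties basement membranes of skin to the stroma. It had 7.08, 8.19 and 8.59 in IL-1β+GlcN+alloxan cells, 6.95, 8.28 and 8.68 in IL-1β+GlcN cells, 7.50, 8.38 and 8.69 in IL-1β+alloxan cells, 7.64, 8.83 and 8.96 with IL-1β alone, and 7.24, 8.38 and 8.58 in resting cells. IL-1β alone was the highest condition in all 3 experiments. With GlcN it fell by 0.51 on the log2 scale (SD 0.21, n = 3, adjusted p = 0.0036, limma) and with both compounds by 0.52 (SD 0.13, adjusted p = 0.0018). With alloxan alone its value was -0.28 ± 0.15 (adjusted p = 0.054, limma), just short of the threshold.

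Type VI collagen forms beaded filaments near cell surfaces from chains of COL6A1, COL6A2 and COL6A3. COL6A1 had 7.85, 9.13 and 9.69 in IL-1β+GlcN+alloxan cells, 7.82, 9.15 and 9.70 in IL-1β+GlcN cells, 8.27, 9.39 and 9.70 in IL-1β+alloxan cells, 8.24, 9.35 and 9.81 with IL-1β alone, and 8.01, 9.29 and 9.63 in resting cells. It passed with both compounds (log2 fold change -0.24 ± 0.14, SD, n = 3, adjusted p = 0.048, limma), and GlcN alone gave a value of the same size that did not (-0.24 ± 0.16, adjusted p = 0.063).

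The partner chain COL6A2 had 7.11, 8.22 and 8.50 in IL-1β+GlcN+alloxan cells, 7.06, 8.45 and 8.60 in IL-1β+GlcN cells, 7.03, 8.23 and 8.50 in IL-1β+alloxan cells, 7.06, 8.22 and 8.50 with IL-1β alone, and 7.06, 8.15 and 8.42 in resting cells. COL6A3 had 4.72, 5.68 and 6.26 in IL-1β+GlcN+alloxan cells, 4.72, 5.81 and 6.37 in IL-1β+GlcN cells, 4.72, 5.73 and 6.36 in IL-1β+alloxan cells, 4.72, 5.73 and 6.38 with IL-1β alone, and 4.72, 5.73 and 6.36 in resting cells. Neither COL6A2 nor COL6A3 passed in any comparison. COL10A1, the collagen of hypertrophic cartilage, passed only with both compounds (log2 fold change -0.33 ± 0.26, adjusted p = 0.023, limma), with differences of -0.06, -0.36 and -0.58 in experiments 1, 2 and 3.

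The question put by IL-1β alone against resting cells is what the cytokine itself did to the family. Of 42 collagen genes 0 passed, against a background of 0% of all genes. At an unadjusted p under 0.05, limma gave 1 collagen gene and 977 of all genes tested (5.79%), and the methods' unpaired test gave 0 collagen genes at its own threshold (an unadjusted p under 0.05 and a change of at least 1.5-fold) and 0 after adjustment. The 1 gene was COL7A1, whose log2 difference was 0.41 ± 0.03 (SD, n = 3 experiments, adjusted p = 0.41, limma), with 0.41, 0.44 and 0.38 in experiments 1, 2 and 3. The value was positive in 32 of 42 members (76.2%) and in 48.4% of all genes tested. The median was 0.03 in the members and 0 over all genes. In the other genes of the F test IL-1β and resting arrays overlapped once experiment means were taken off, which was not counted over all genes.

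GlcN against IL-1β alone is the comparison on which the study was built. It lowered 10 of 42 collagen genes and raised 0. Of all genes tested 11.9% were called, 6.62% as lower and 5.29% as higher. The 10 were COL1A1, COL1A2, COL3A1, COL5A2, COL11A1, COL4A1, COL4A2, COL7A1, COL8A1 and COL12A1. By class these are 5 of 11 fibrillar genes, 2 of 6 type IV genes and 3 of 25 others. The median log2 fold change was -0.24 in the fibrillar class, -0.09 in type IV, 0.00 in the other class and 0.01 over all genes tested. The count was 2 without all arrays of experiment 1 or of experiment 2. Leaving out single arrays gave 4 to 12, with 4 without the IL-1β array of experiment 1 and 6 without the IL-1β+GlcN array of experiment 2.

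**Figure D2:**
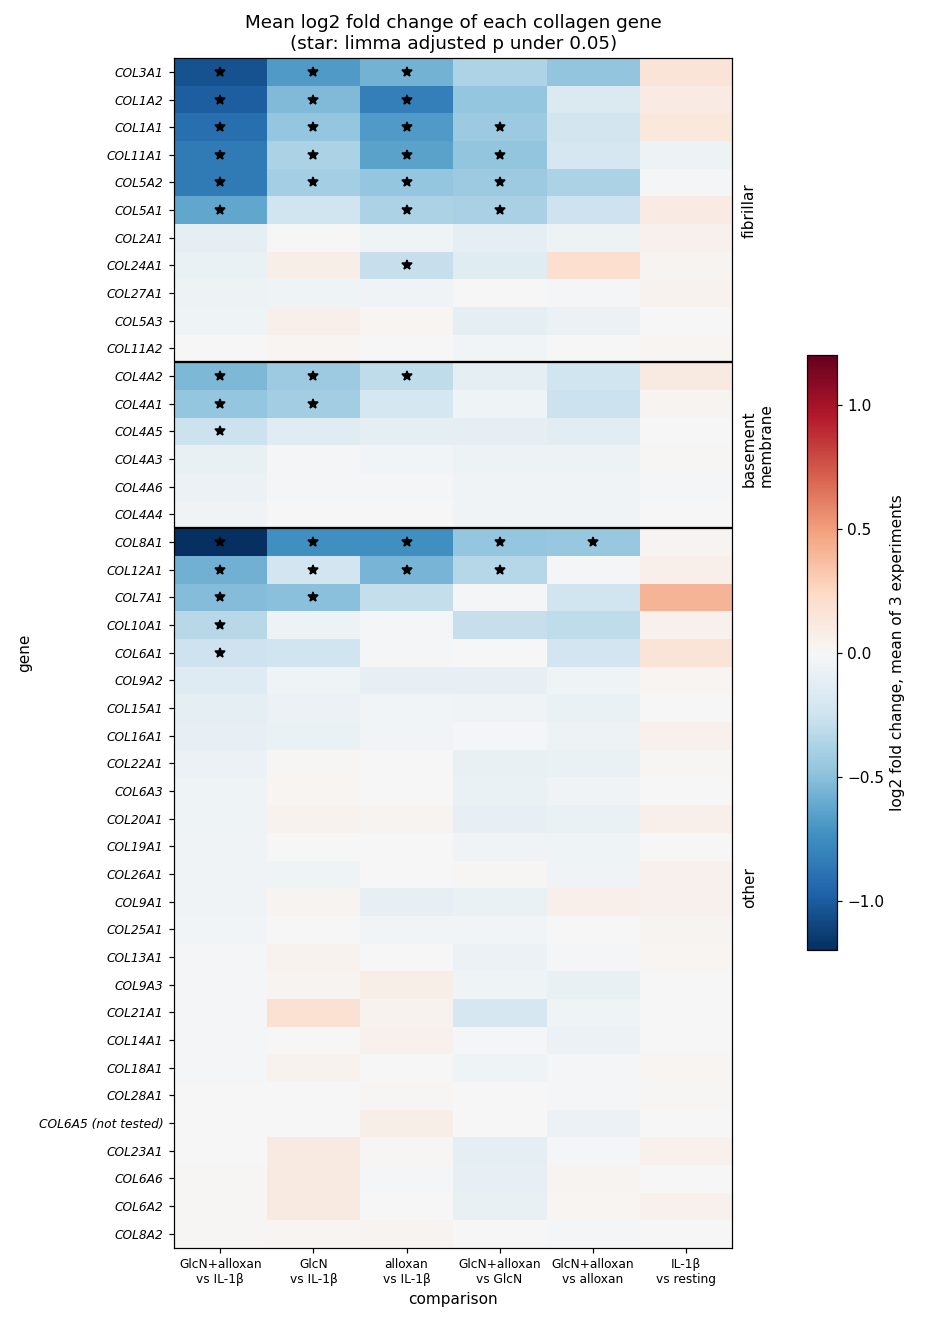
Mean log2 fold change over 3 experiments for all 43 collagen genes (rows, grouped by class and ordered within it by the first column) in 6 comparisons (columns), with blue for lower and red for higher. Stars mark an adjusted p under 0.05 in limma, which 14, 10, 10, 6, 1 and 0 genes reached from left to right; COL6A5 was not tested.

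Alloxan against IL-1β alone gave the effect of alloxan without GlcN. The paper reports that in cells given IL-1β without GlcN, alloxan left O-GlcNAc modification without substantial change. Whether OGT inhibition had a part in the values below was not tested. Again 10 of 42 members were lower and 0 higher, against a background of 13.3%, made up of 7.21% lower and 6.13% higher. The fibrillar class supplied 7 of these (COL1A1, COL1A2, COL3A1, COL5A1, COL5A2, COL11A1 and COL24A1), type IV 1 (COL4A2) and the other class 2 (COL8A1 and COL12A1). The median was -0.38 in the fibrillar class, -0.08 in type IV, -0.01 in the other class and 0.01 over all genes. The count ranged from 5 to 11 when arrays were left out. It was 5 without experiment 1, without experiment 2, without the IL-1β array of experiment 1 and without the IL-1β+alloxan array of experiment 3.

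Both compounds together against IL-1β alone lowered 14 of 42 members and raised 0, against a background of 17.5%, made up of 8.47% lower and 9.06% higher. In this comparison 6 of 11 fibrillar genes, 3 of 6 type IV genes and 5 of 25 others passed. Every fibrillar and type IV gene tested had a value below 0, though some lay near it, such as COL11A2 at -0.008. In the other class 4 of 25 were above 0. Over all genes tested 46.9% were above 0, and of those below the array median 36.4%. The median was -0.63 in the fibrillar class, -0.17 in type IV, -0.05 in the other class and 0.00 over all genes. The count stayed between 10 and 14 when arrays were left out. These comparisons share the arrays of IL-1β alone, so their calls are not independent of each other.

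Marker genes moved in these 3 comparisons too. Of 11 fibroblast markers tested, THY1, PDGFRB and FAP fell and CD55 rose with both compounds, THY1 and FAP fell and CD55 rose with GlcN, and PDGFRB and FAP fell with alloxan. The mean log2 level of the fibroblast list, less the experiment mean, ran from -0.10 to -0.02 in IL-1β+GlcN+alloxan cells, from -0.06 to -0.02 in IL-1β+GlcN cells and from -0.04 to -0.02 in IL-1β+alloxan cells, and lay at 0.07 on all 3 arrays with IL-1β alone. Each treated condition thus lay below IL-1β alone without overlap. Of the other cell types, 3 of 5 endothelial, 1 of 4 epithelial (KRT18) and 1 of 6 chondrocyte markers (MATN3) fell with both compounds and 0 rose, while KRT18 also fell with GlcN and the epithelial CDH1 with alloxan. The endothelial list ran from -0.14 to -0.02 in IL-1β+GlcN+alloxan cells and from 0.01 to 0.05 with IL-1β alone, with 0 of its 5 markers above the array median. The epithelial list ran from -0.20 to -0.06 in IL-1β+GlcN+alloxan cells and from 0.01 to 0.06 with IL-1β alone, and the chondrocyte list from -0.10 to -0.03 and from -0.01 to 0.07 in the same conditions. The macrophage and T cell lists had 0 calls in these comparisons. The part of the markers in the collagen values was not tested.

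Calls fell mostly on bright genes, among the members and over the whole array. Of the 25 collagen genes above the array median, 12 were lower with both compounds, and of the 17 below it 2 were, COL4A5 and COL10A1. Over all genes the share called in either direction was 24.4% above the array median and 3.92% below it. With GlcN 10 of the 25 brighter members were called and 0 of the 17 dimmer ones, where 16.5% of all genes above the median and 2.92% of those below it were called. Brightness also depends on the probes of each cluster, so it does not rank the genes by RNA amount. Some members had equal values on several arrays of an experiment, so their differences there were exactly 0. Among them were the dim COL4A4 and COL6A3, but also COL23A1 at a mean percentile of 58.6. Genes of the F test had ties too, such as COL5A2 in IL-1β+GlcN and IL-1β+alloxan cells of experiment 1 (6.8164).

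**Figure D3:**
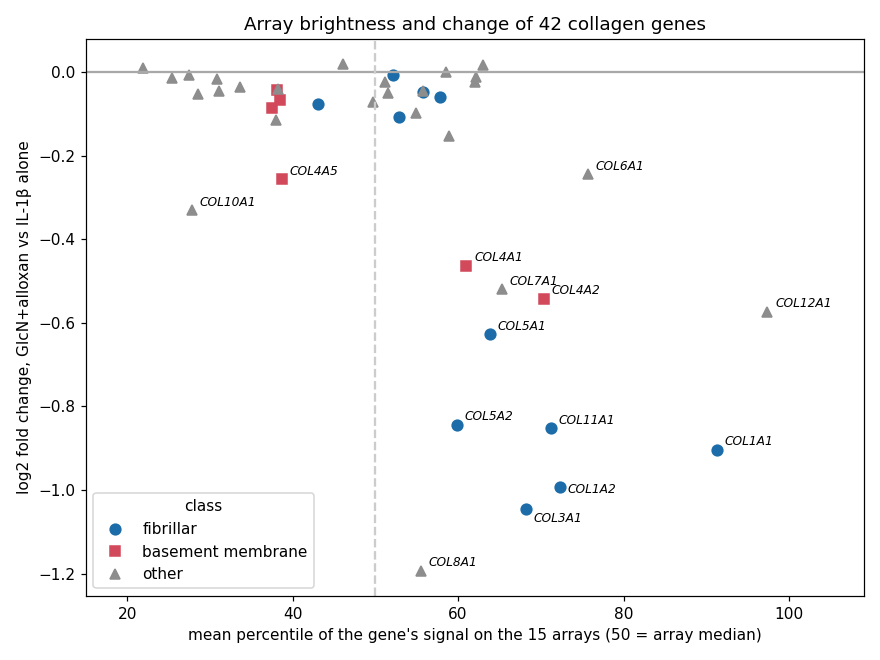
Mean percentile of each collagen gene's signal on the 15 arrays (x axis, dashed line at the array median) against its log2 fold change with GlcN and alloxan over IL-1β alone (y axis), for the 42 genes tested, with symbols for the 3 classes. The 14 named genes passed in limma; 12 lie right of the dashed line, and the dimmer genes gather near 0.

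Alloxan added to GlcN was read from IL-1β+GlcN+alloxan against IL-1β+GlcN. Here 6 of 42 members were lower and 0 higher, with a background of 6.79%, made up of 3.52% lower and 3.27% higher. These were COL11A1 (log2 fold change -0.47 ± 0.08), COL8A1 (-0.46 ± 0.27), COL1A1 (-0.44 ± 0.16), COL5A2 (-0.43 ± 0.09), COL5A1 (-0.39 ± 0.03) and COL12A1 (-0.34 ± 0.02, SD, n = 3 each). Their adjusted p ran from 0.0064 for COL12A1 to 0.033 for COL1A1 (limma). COL1A2 at -0.46 ± 0.13 lay just outside (adjusted p = 0.054). No type IV chain passed, and their values lay between -0.11 and -0.04. The count varied from 0 to 8 when arrays were left out. It was 1 without experiment 1, 0 without experiment 2 and 1 without experiment 3. It was 2 without the IL-1β+GlcN+alloxan array of experiment 1 or the IL-1β+GlcN array of experiment 2 or 3, and 3 without the IL-1β+GlcN+alloxan array of experiment 2.

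Whether GlcN acted differently in the presence of alloxan was tested as an interaction, the GlcN effect with alloxan minus the GlcN effect without it. Of 42 members 0 passed, against a background of 0.0711% of all genes, and 2 had an unadjusted p under 0.05 in limma, COL12A1 and COL21A1, as had 11% of all genes. In COL12A1 the GlcN effect was -0.02 ± 0.06 with alloxan and -0.23 ± 0.13 without it, a difference of 0.21 log2 units with a 95% interval from 0.03 to 0.40 (limma, adjusted p = 0.40). COL21A1, a collagen associated with fibrils, had a difference of -0.24 with an interval from -0.45 to -0.02 (limma, adjusted p = 0.41).

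For COL1A2 the difference was 0.35 with an interval from -0.04 to 0.75 (limma), which was the highest of all members, and COL10A1 had the lowest at -0.25. COL8A1 stood at 0.28, with an interval from -0.05 to 0.60, and COL7A1 at 0.27. In COL5A1 and COL5A2 the difference was -0.01 and 0.04, with intervals from -0.29 to 0.26 and from -0.29 to 0.36. These intervals do not show the GlcN effect to be equal with and without alloxan.

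**Figure D4:**
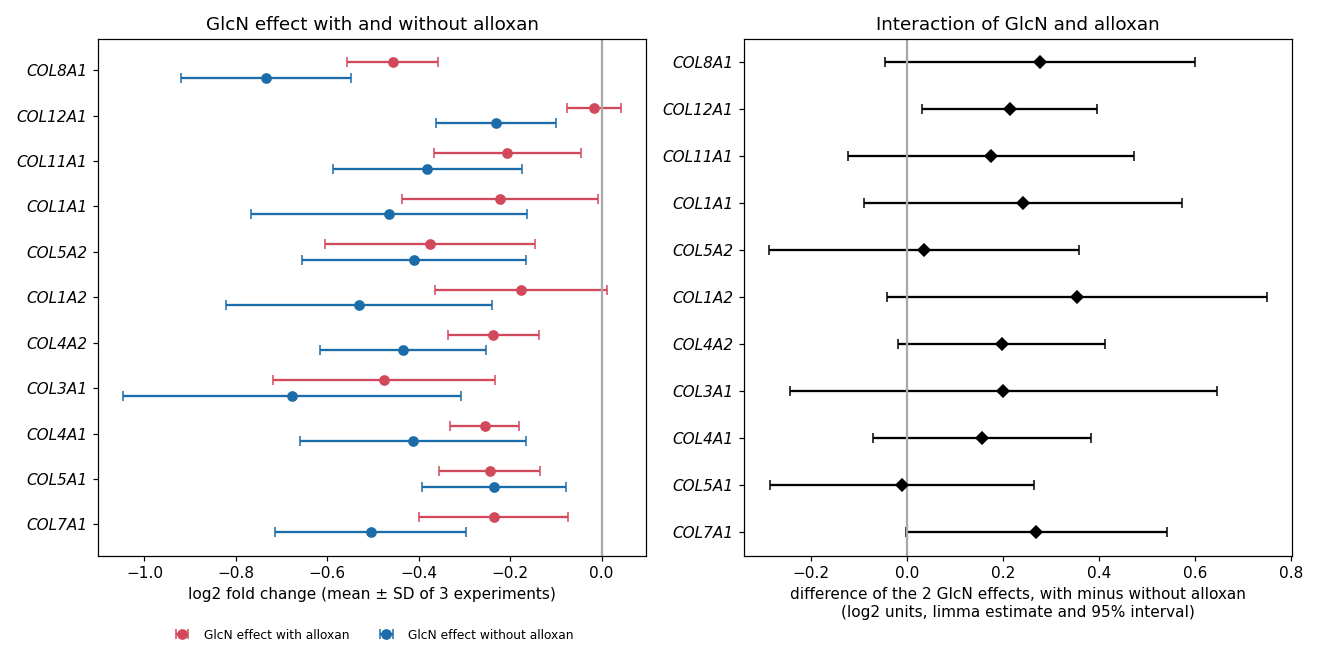
Left, the GlcN effect on the 11 collagen genes of the F test with alloxan (red) and without it (blue), as mean log2 fold change ± SD of 3 experiments (x axis). Right, the difference of both effects with its 95% interval from limma, which spans 0 in each gene but COL12A1; no gene passed after adjustment.

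The 2 compounds were also set against each other, as IL-1β+GlcN over IL-1β+alloxan, a comparison chosen after the data had been seen. Of 42 members 2 were higher with GlcN and 0 lower, with a background of 15.5% of all genes, 7.66% higher and 7.83% lower. COL12A1 was higher by 0.33 log2 units (SD 0.06, n = 3, adjusted p = 0.0030, limma) and COL24A1 by 0.35 (SD 0.24, adjusted p = 0.014). The type IV chain COL4A1 had a value of -0.20 ± 0.09 (adjusted p = 0.087, limma, interval from -0.37 to -0.04), COL7A1 of -0.22 ± 0.29 (adjusted p = 0.12) and COL11A1 of 0.26 ± 0.12 (adjusted p = 0.090). GlcN and alloxan were used at different doses and times, and the comparison holds for these only. Leaving out arrays gave 1 to 4 members. The count was 1 without experiment 1, without experiment 2 or without the IL-1β+alloxan array of experiment 1, and 4 without the IL-1β+GlcN array of experiment 1 or of experiment 3.

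The genes that modify, export, process, bind and break down collagen were read for the GlcN effect, from lists written beside the members. Of 14 tested enzymes and partners of prolyl and lysyl hydroxylation and glycosylation, 5 fell and 2 rose, with a list median of -0.20. PLOD2, the lysyl hydroxylase of crosslink sites, changed by -0.44 ± 0.22, PLOD1 by -0.36 ± 0.17 and the prolyl hydroxylase P3H3 by -0.32 ± 0.10 (SD, n = 3, adjusted p from 0.0035 to 0.014, limma). Of 12 folding and export genes 2 rose and 1 fell. MIA3 and MIA2, which encode the TANGO1 and cTAGE5 proteins that load procollagen for export, rose by 0.29 and 0.42 on the log2 scale, and the chaperone FKBP10 fell by 0.23.

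Of 13 genes of propeptide processing and crosslinking 4 fell and 0 rose. The protease gene TLL1 fell by 1.17, and the crosslinking oxidases LOXL2 and LOX fell by 0.51 and 0.32 on the log2 scale (adjusted p from 0.00021 to 0.012, limma). Among 7 tested fibril-binding proteins THBS1 fell by 0.73 and the collagen-binding SPARC by 0.40. Of 9 receptors and uptake genes, 1 rose, the collagen receptor kinase gene DDR2, by 1.01. In the breakdown list 2 of 7 fell, the gelatinase gene MMP2 by 0.95 and CTSK by 0.28, and PEPD, which recycles proline, rose by 0.19. Of 17 transcription genes 2 rose and 2 fell. CEBPB rose by 1.46 and LARP6, whose protein binds type I collagen mRNA, by 0.71, and RUNX2 fell by 0.29. Each of these calls was lost without the block (adjusted p = 1, limma), and with GlcN 11.9% of all genes were called.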

How the data were processed

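Gene expression had been measured on 15 arrays of 1 cell line. The authors summarised probes with RMA in Affymetrix Expression Console (versions not given in the sources used here) and deposited log2 values, 1 per transcript cluster. RMA includes background correction and normalization, which were kept, although the 3 experiments differed in level. Of 33297 clusters, 19460 carried 1 gene symbol in the platform annotation, 1754 several and 12083 none listed; 19429 were named through a gene ID in RefSeq (GRCh38.p14). Genes at or above the 20th percentile of the array on at least 3 arrays were tested. The number of arrays limits the precision.

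Contrasts were fitted with limma 3.58.1 in R 4.3.3 (lmFit, eBayes, two-sided) over all 15 arrays and 5 conditions with the experiment number as a block, and p-values were adjusted by Benjamini-Hochberg. The residual degrees of freedom were 8 (10 without the block). The study's own test was an unpaired Student's test without multiple testing correction and with a 1.5-fold limit; it, run on the deposited values and on values less each array's median, and the unblocked fit were alternatives. The pairing comes from the experiment numbers in the labels: same-numbered arrays deviated together from their group means (r between 0.62 and 0.85 in 30 pairs, whereas 60 pairs of other number and group lay between -0.66 and -0.07). Since deviations within a group add up to 0, the negative values follow from the positive ones and are no separate evidence. In a simulated GlcN effect over 16872 genes, 50 were changed at each of 1.25, 1.5, 2 and 4-fold. The blocked fit recovered 29, 47, 50 and 50 of them, in that order, with 7 false calls. The unblocked fit recovered 0. Measured effects differed between experiments, for example from -1.09 to -0.38 log2 units for COL3A1 with GlcN. Recovery of such uneven effects was not tested, so these counts do not show how either fit does on the measured data. Further alternatives were other brightness filters, the mean over clusters, quantile normalization, an intensity trend, only the groups compared, and leaving out arrays.

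Members and lists were chosen with earlier results of these data known. All members could be named; values on all arrays are given for COL1A1, COL1A2, COL3A1, COL5A1, COL5A2, COL4A1, COL4A2, COL6A1, COL6A2, COL6A3, COL8A1, COL12A1 and the members called in the F test or a contrast with the smallest F p; COL8A1 and COL3A1 had been seen in the study's lists. Of each companion list, up to 3 genes with the smallest p for GlcN are named. Promoter letters are from RefSeq. Figures were drawn with matplotlib 3.10.9 in Python 3.11.15.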

Additional observations from a re-analysis of the deposited data

How the results depend on the processing

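The experiment numbers pair the arrays. With no replicate block, 0 collagen genes passed in each of the 7 comparisons between conditions, in the interaction and in the F test. In that limma fit the spread between experiments counts as error, and 1 common spread served for all genes (standard error 0.596). On the deposited values the methods' t-test called 0 collagen genes after adjustment or at its own threshold (unadjusted p under 0.05, at least 1.5-fold). One-way analysis of variance gave 0 as well. At its own threshold the t-test called 22 of all genes as lower with GlcN and 25 as higher. The paper, from its own run of this test, lists COL8A1 and COL3A1 as lowered by GlcN. The rerun on the deposited values did not reproduce these calls, and the cause was not tested. The t-test was also run on values less each array's median, an alternative chosen after seeing the data. At its own threshold it then called 2 collagen genes as lower with GlcN (COL3A1 and COL8A1), 4 with alloxan and 7 with both. In the other comparisons it called 0, and 0 in every comparison after adjustment. Of all genes tested it called 138 as lower and 159 as higher with GlcN at that threshold. With alloxan these counts were 159 lower and 86 higher, and with both compounds 272 lower and 201 higher. With the block and only the groups compared, the limma count of collagen genes was 0, and 1 for GlcN against alloxan. The share of all genes in that fit was not counted. Other filters, the mean over clusters, quantile normalization and an intensity trend kept each count within 1.5 times of the values given. Leaving out arrays gave 2 to 12 for GlcN, 5 to 11 for alloxan, 10 to 14 for both against IL-1β alone, 0 to 8 for alloxan added to GlcN, 0 to 2 for GlcN with alloxan, 1 to 4 for GlcN against alloxan and 8 to 13 in the F test. No called gene named in the text changed direction; over the fits that left arrays out, their calls were kept 882 times and lost 216 times. Values near 0 did when arrays were left out. With GlcN, COL24A1 ran from -0.0218 to 0.119 and COL6A3 from -0.003205 to 0.0448. With alloxan, COL6A1 ran from -0.0858 to 0.0627, COL6A2 from -0.0156 to 0.00768 and COL6A3 from -0.0149 to 0.00903, and quantile normalization gave 0.0128 for COL6A2 and 0.0123 for COL6A3. With both compounds COL6A2 ran from -0.0103 to 0.0371. In the interaction COL5A1 ran from -0.0726 to 0.0813 and COL5A2 from -0.0935 to 0.130. The cause was not tested.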
